A study of Mus musculus with 4 samples.

Results

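The 8 genes described here encode the calcium-dependent phosphatase calcineurin, the NFAT transcription factors and the calcineurin regulator Rcan1. They were chosen by name (Nfatc1, Nfatc2, Nfatc3, Nfat5, Ppp3ca, Ppp3cb, Ppp3r1 and Rcan1), and all 8 were found by mouse Ensembl identifier among the 37140 genes listed for all 4 RNA-seq libraries. The study compared hematopoietic stem cells (HSCs) of mice with and without the transcription factor Gfi1b. Bone marrow of C57Bl6 mice came from tibiae, femora and humeri, and 1 library was made from each genotype in each of 2 sorted populations. The first population was sorted as Lin- cKit+ Sca1+ CD48- CD150+ and is called HSCs below. The second was HSCs gated for low CD41 and low CD9 (CD41low/CD9low HSCs).

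The KO libraries came from mice whose floxed Gfi1b alleles were deleted by a Cre expressed from the Rosa locus after tamoxifen, so the deletion was not restricted to blood cells. For the WT libraries the sources differ. The methods name Cre-carrying mice with 1 floxed and 1 wild-type allele that also received tamoxifen, whereas the series text names floxed mice with or without Cre. The methods state that 10 WT and 5 KO mice were pooled before sorting. The age of the mice was not given in the sources used here, and the time from tamoxifen to harvest was given as 2 weeks in one place and as 10 days in another. As the methods describe it, marrow was pooled by genotype before lineage depletion and both populations were sorted from it, so the 2 libraries of a genotype shared animals and there were no biological replicates. The sample titles read Gfi1 where the genotype field reads Gfi1b, and the genotype field was followed here. In bulk RNA, fewer cells of a type and less RNA per cell cannot be told apart.

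Calcineurin is made of a catalytic A subunit (Ppp3ca or Ppp3cb, with Ppp3cc mostly in testis) and a calcium-binding B subunit (Ppp3r1). When calcium rises, calmodulin activates the phosphatase, which removes phosphates from Nfatc1 to Nfatc4 so that they enter the nucleus, and Gsk3, Dyrk1 and casein kinases put the phosphates back. Nfat5 shares the DNA-binding domain but lacks the calcineurin docking region and responds to osmotic stress. Rcan1 binds and restrains calcineurin, and the transcript from its internal start is itself induced by NFAT. In the non-canonical branch of Wnt signaling, ligands such as Wnt5a can raise calcium and so reach this phosphatase.

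The libraries held 50781007 (HSC WT), 41690708 (HSC KO), 12732079 (CD41low/CD9low WT) and 19123185 (CD41low/CD9low KO) counts on genes. All 7 HSC marker genes had counts in every library, with a summed level of 1730 to 2320 CPM (gene counts scaled to the library total). Itga2b, which encodes CD41, was at 547 and 691 CPM in the HSC libraries and at 136 and 205 CPM in the CD41low/CD9low libraries, and Cd9 was at 185 and 185 CPM against 109 and 133 CPM. Gfi1b counts were higher in the KO library of both populations (182 in WT and 1200 CPM in KO HSCs, 48.0 and 509 CPM in the other pair). A count over the whole gene does not separate deleted from remaining exons, so it does not check the genotype labels.

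Ppp3r1, the calcium-binding B subunit, had the highest level of the 8 genes per kilobase of exon in all 4 libraries. It stood at 31.5 (HSC WT), 37.0 (HSC KO), 19.9 (CD41low/CD9low WT) and 16.0 (CD41low/CD9low KO) CPM per kb. In HSC WT it was followed by Nfatc3 at 13.5, Ppp3ca at 11.9, Ppp3cb at 11.6, Nfat5 at 10.4, Nfatc1 at 6.64, Rcan1 at 5.0 and Nfatc2 at 1.74 CPM per kb. With 1 library per group no spread can be set beside this order, and the steps from Nfatc3 to Nfat5 were small. Nfatc2 was lowest in 3 of the libraries, and in CD41low/CD9low WT it stood at 5.41 CPM per kb, just above Rcan1 at 5.14. Nfat5 ranked 5 in HSC WT and 2 in HSC KO, at 19.0 CPM per kb. Transcripts of both A subunits, the B subunit and 4 NFAT factors were thus present in every library.

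**Figure D1:**
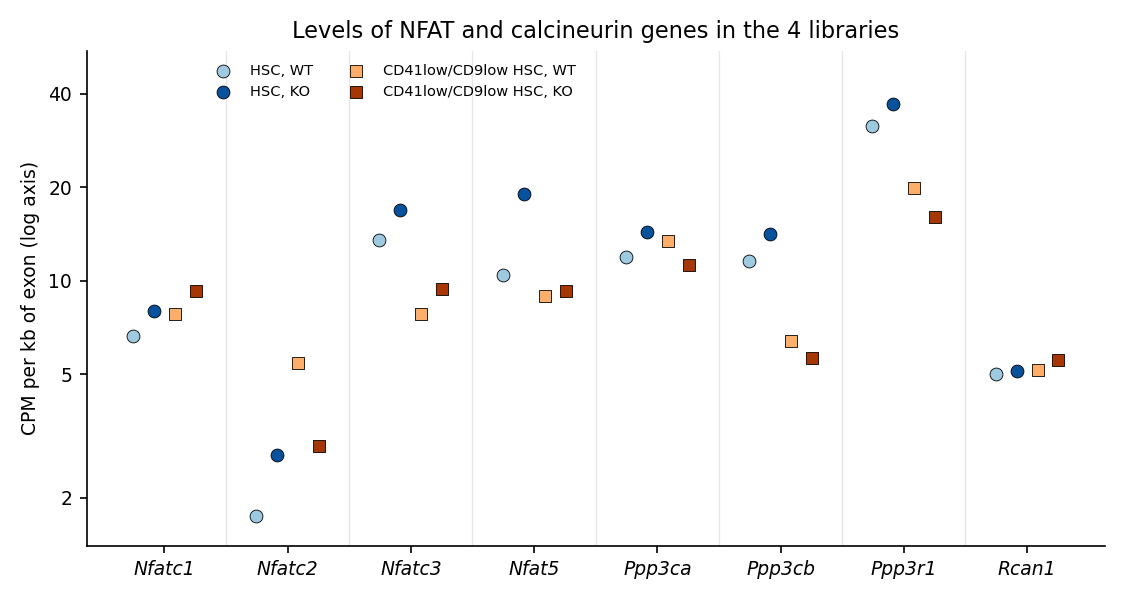
Level of each of the 8 genes in CPM per kb of exon (log axis), 1 point per library, circles for HSCs and squares for CD41low/CD9low HSCs, light for WT and dark for KO. Ppp3r1 sits highest in every library, Nfat5 stands out in HSC KO at 19.0, and the 4 Rcan1 points lie between 5.0 and 5.56.

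The question for each population was whether these genes differed between KO and WT. Counts were divided by a size factor within each pair of libraries (normalized counts), and the KO/WT ratio is given with its exact 95% interval, which covers counting error only and not the difference between pools of mice. A ratio above 1.5 was counted as up and below 0.6 as down, and no test was possible within a population. In HSCs, 2 of the 8 genes were past the upper cutoff (Nfat5 and Nfatc2) and 0 were past the lower, against 14.1% of the 15910 genes examined past the upper and 10.3% past the lower (24.4% in all). In CD41low/CD9low HSCs 0 were up and 1 was down (Nfatc2), against 13.4% up and 12.0% down (25.5% in all) of 14844 genes. All 8 genes were counted in both populations.

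In HSCs all 8 ratios were above 1, with a median log2 ratio of 0.30 against 0.00 over all genes. The interval lay above 1 for 7 of the 8, all but Rcan1, where 35.6% of all genes had an interval above 1. In the same HSC pair the 7 platelet genes summed to 1070 CPM in WT and 1670 in KO. Of these 7, 5 had ratios above 1, led by Itgb3 at 3.32 (202 CPM in WT and 663 in KO). The remaining 2 were below 1, Pf4 at 0.889 and Gp9 at 0.904. The 5 erythroid genes summed to 176 and 129 CPM, all 5 with ratios below 1. The part of platelet and erythroid genes in the ratios of the 8 genes was not tested. In CD41low/CD9low HSCs 4 ratios were above 1 and 4 below, with a median of -0.06 against 0.01 over all genes. There the interval lay above 1 for Nfatc1 and Nfatc3 (31.1% of all genes) and below 1 for Nfatc2 and the 3 calcineurin subunits (30.4% of all genes). These last 4 genes were thus on opposite sides of 1 in the 2 populations, which held for 8.05% of the 14144 genes examined in both. An interval narrows as counts rise, and the genes examined needed only 10 counts in 1 library of a pair. The 8 genes had at least 202 counts in every library, so these shares of intervals do not come from genes of like counts. The same holds for the shares past a cutoff and for the percentiles among 13535 genes given below.

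**Figure D2:**
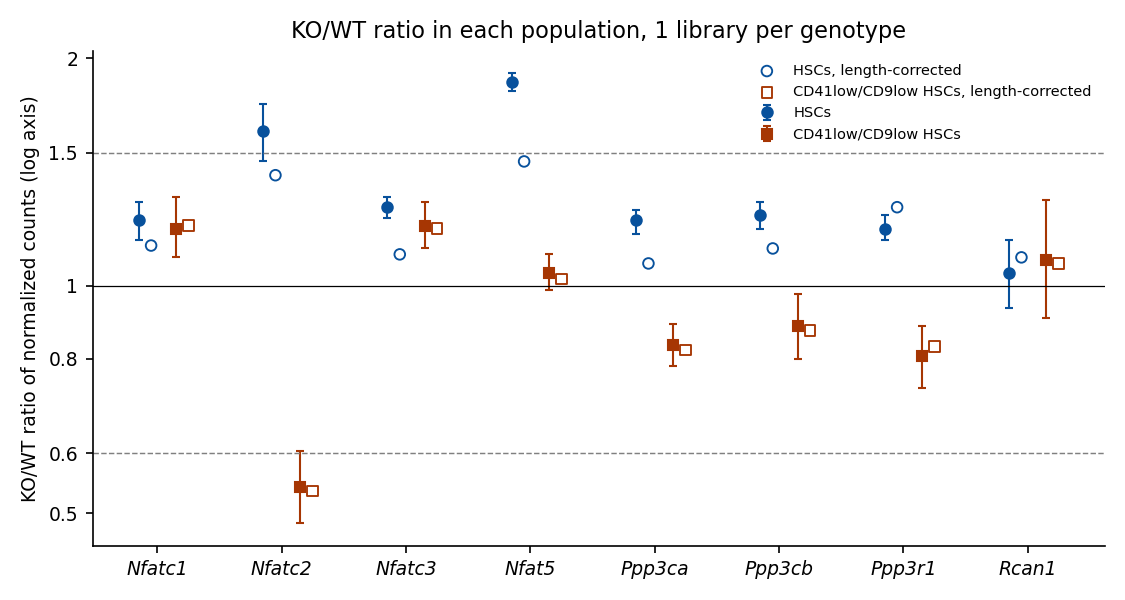
KO/WT ratio of normalized counts (log axis) for each gene in HSCs (circles) and CD41low/CD9low HSCs (squares). Filled points carry the 95% interval for counting error, open points are corrected for exon length, and the dashed lines mark the cutoffs of 1.5 and 0.6. Nfat5 at 1.86 and Nfatc2 at 1.6 in HSCs lie above the upper line before the correction, and Nfatc2 at 0.541 in CD41low/CD9low HSCs lies below the lower line.

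Nfat5 encodes the osmotic stress factor of the family and spans chr8:107293470-107379517 on the plus strand (GRCm38). Its upstream sequence is printed because it is the gene furthest past the cutoff in HSCs. The 250 bases before the RefSeq start (GRCm38.p6, chr8:107293220-107293469) are shown 5′ to 3′ on the gene's strand, with the NFAT core GGAAA on either strand (TTTCC on the reverse) in capitals.

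Nfat5 upstream: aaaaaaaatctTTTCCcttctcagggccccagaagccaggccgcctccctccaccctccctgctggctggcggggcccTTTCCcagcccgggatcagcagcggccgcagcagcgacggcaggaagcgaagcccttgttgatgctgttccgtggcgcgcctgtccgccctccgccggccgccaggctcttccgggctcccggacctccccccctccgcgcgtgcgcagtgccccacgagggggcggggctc

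The window held 2 matches, at positions -239 to -235 and -172 to -168 from the start. Of 32851 RefSeq windows of the same length 55.6% held at least 1 match and 21.4% held 2 or more, so a match is common and is given as a description of the sequence. The window also held 1 AATC, the core of the Gfi1 family motif, at -244 to -241, as 69.0% of windows did on either strand. No binding was measured in these libraries.

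Nfat5 had 9675 counts in HSC WT, 14575 in HSC KO, 2083 in CD41low/CD9low WT and 3258 in CD41low/CD9low KO. That is 191, 350, 164 and 170 CPM, and HSC KO stood apart from the other 3 libraries. In HSCs the KO/WT ratio was 1.86 (1.81 to 1.91), against 1.04 (0.987 to 1.1) for the CD41low/CD9low pair. The log2 ratios of 0.89 and 0.06 differed by 0.83, more than counting error allows (the interval of the CD41low/CD9low minus HSC difference ran from -0.92 to -0.75). This difference lay at percentile 10.8 among 13535 genes, and with 1 library per cell of the design it was not tested.

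Nfat5 has 18.38 kb of exon, longer than in 97.6% of the genes examined, and in HSCs the KO/WT ratio moved with exon length. When genes were split by exon length into 5 groups, the median log2 ratio ran from -0.18 in the shortest to 0.18 in the longest group in HSCs, and from -0.05 to 0.02 in CD41low/CD9low HSCs. After subtraction of the running median over 500 genes of like length, the Nfat5 ratio in HSCs was 1.46 and that of Nfatc2 was 1.4, both under the cutoff, and 0 of the 8 genes were past it. The ratios of all 8 stayed above 1. Over all genes, 3466 were past a cutoff in HSCs after the correction, and 3887 of 15910 before it. The share of reads that matched no annotated feature also differed, with 105.3 such reads per 100 counts on genes in HSC KO against 80.0 in HSC WT. It was 60.1 against 62.0 in CD41low/CD9low KO and WT. Ambiguous reads and reads aligned to more than 1 place are not in these values. The part of exon length and of reads without a feature in the result was not tested.

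**Figure D3:**
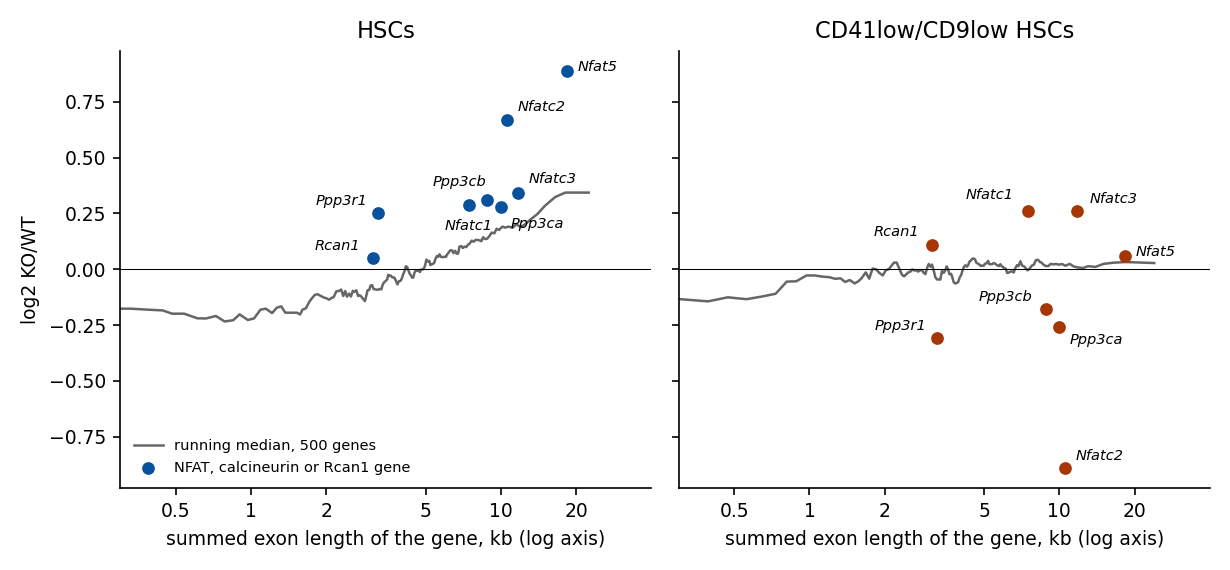
The log2 KO/WT ratio of the 8 genes (points) against summed exon length in kb (log axis), with the running median over 500 genes of neighbouring length (line), for HSCs on the left and CD41low/CD9low HSCs on the right. In HSCs the line climbs with length to 0.35 at Nfat5, while in CD41low/CD9low HSCs it is at 0.03 there.

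Nfatc2 encodes a calcineurin-dependent factor best known from T cells and lies at chr2:168476410-168601657 on the minus strand. Its first upstream window (chr2:168601658-168601907) is printed because Nfatc2 alone among the 8 genes was past a cutoff in both populations, in opposite directions.

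Nfatc2 upstream: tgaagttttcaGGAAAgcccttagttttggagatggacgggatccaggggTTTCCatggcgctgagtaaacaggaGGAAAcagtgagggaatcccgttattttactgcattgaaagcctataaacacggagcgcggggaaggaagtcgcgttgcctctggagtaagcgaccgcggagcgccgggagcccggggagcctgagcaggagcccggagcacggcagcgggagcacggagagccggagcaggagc

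The window held 3 matches to GGAAA, a number reached by 6.39% of all windows, and 1 AATC. The window of the alternative start inside the gene held 1 of each. A count over the gene does not separate transcripts from these starts.

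Nfatc2 had 937 (HSC WT), 1211 (HSC KO), 729 (CD41low/CD9low WT) and 592 (CD41low/CD9low KO) counts, or 18.5, 29.0, 57.3 and 31.0 CPM. The CD41low/CD9low WT library was the high one and HSC WT the low one, and the 2 KO libraries were close to each other. In HSCs the KO/WT ratio was 1.6 (1.46 to 1.74), against 0.541 (0.485 to 0.604) for the CD41low/CD9low pair, or 0.67 and -0.89 on the log2 scale. Their difference, CD41low/CD9low minus HSC, was -1.56 (-1.76 to -1.36, counting error only), at percentile 5.0 of 13535 genes. Up in HSCs and down in CD41low/CD9low HSCs, each past the cutoff, was seen in 2.25% of genes. Both Nfatc2 intervals include the cutoff (1.5 and 0.6). The opposite direction kept its sign after the length correction (1.4 and 0.535).

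Granulocyte genes moved with Nfatc2 in CD41low/CD9low HSCs. The 8 granulocyte markers (Elane, Mpo, Ctsg, S100a8, S100a9, Ngp, Ltf and Camp) summed to 370 CPM in HSC WT, 485 in HSC KO, 1010 in CD41low/CD9low WT and 219 in CD41low/CD9low KO, with none at 0 in any library. All 8 were below the cutoff of 0.6 in CD41low/CD9low HSCs, with ratios of 0.0892 to 0.261, and in HSCs their ratios were 1.03 to 1.5. Both Nfatc2 and this sum were highest in CD41low/CD9low WT, but the sum was lowest in CD41low/CD9low KO, where Nfatc2 was not (31.0 CPM against 18.5 and 29.0 CPM in HSC WT and KO). The part of granulocyte RNA in the Nfatc2 ratio was not tested. By the methods, the lineage antibodies used before the sort included Gr1 and CD11b, which mark granulocytes and monocytes, and CD3, CD4 and CD8. In the CD41low/CD9low pair the monocyte genes Csf1r and Adgre1 had ratios of 0.17 and 0.405. Cd14 was at 1.0, and Ly86 was at 0 CPM in both libraries. The 4 monocyte genes summed to 9.98 CPM in HSC WT, 9.43 in HSC KO, 13.5 in CD41low/CD9low WT and 4.24 in CD41low/CD9low KO, also highest where Nfatc2 was. The 7 T cell genes summed to 10.9, 8.01, 18.1 and 11.5 CPM in the same order, again highest in CD41low/CD9low WT. In both CD41low/CD9low libraries 5 of them were at 0, Cd3e, Cd3d, Cd3g, Cd8a and Cd2, while Cd4 was at 7.46 CPM in WT and 2.09 in KO, and Lck at 10.7 and 9.36. The 5 B cell genes summed to 22.0, 17.9, 30.8 and 28.2 CPM. The part of these genes in the Nfatc2 ratio was not tested either.

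**Figure D4:**
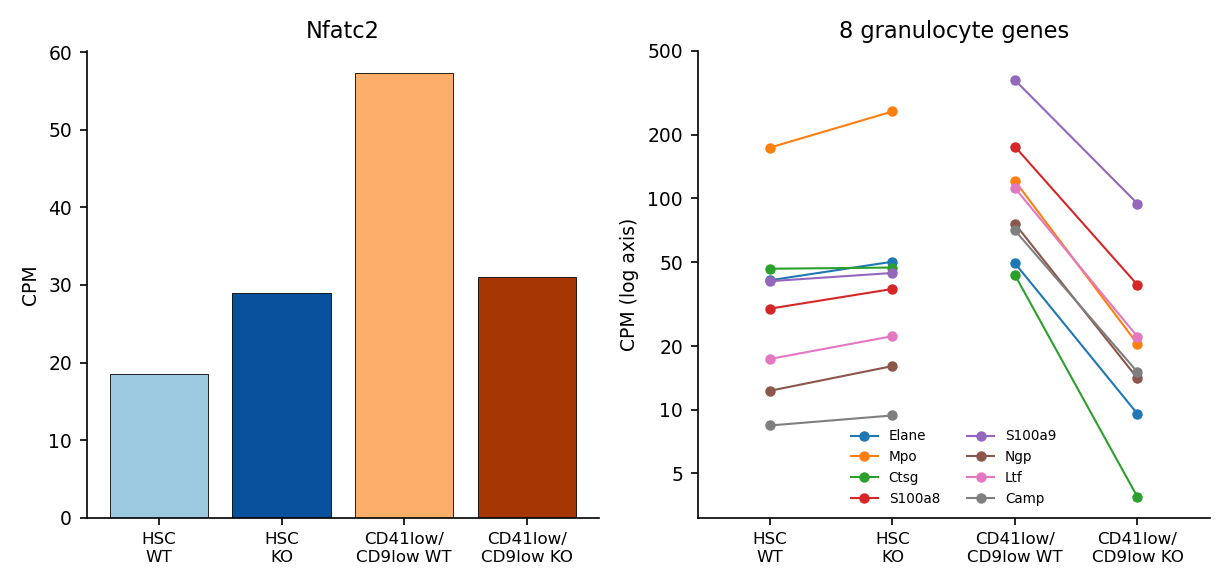
Left, Nfatc2 in CPM in the 4 libraries (bars, 1 library each). Right, 8 granulocyte genes in CPM (log axis), with lines joining WT and KO of each population. Nfatc2 is at 57.3 in CD41low/CD9low WT and 31.0 in KO, all 8 granulocyte genes are lower in that KO library, and in HSCs the lines are flat or slope upward.

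Nfatc3 and Nfatc1 were the NFAT factors whose ratios were alike in the 2 populations. Nfatc3, a factor expressed in many tissues, had 8049 and 8253 counts in HSC WT and KO and 1169 and 2102 in CD41low/CD9low WT and KO, or 159, 198, 91.8 and 110 CPM. Both HSC libraries were above both CD41low/CD9low libraries. In HSCs the ratio was 1.27 (1.23 to 1.31), against 1.2 (1.12 to 1.29) for the CD41low/CD9low pair, and with the length correction 1.1 and 1.19. The gene shares its locus on chromosome 8 with Esrp2 on the opposite strand, and the strand setting of the counting was not given in the sources used here, so reads of this pair cannot be told apart. Of the other genes, Ppp3cb, Rcan1, Nfatc1 and Ppp3ca also overlap an annotated gene on the opposite strand. Ppp3r1 overlaps Wdr92, and Ppp3ca also overlaps Gm42822, each on its own strand. Nfatc2 and Nfat5 overlap none.

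Nfatc1, a factor known from osteoclasts and heart valves, had 2517 and 2488 counts in HSC WT and KO and 740 and 1326 in CD41low/CD9low WT and KO. Its CPM values were 49.6, 59.7, 58.1 and 69.3, with KO above WT in both populations. The ratio was 1.22 (1.15 to 1.29) for the HSC pair and 1.19 (1.09 to 1.31) for the CD41low/CD9low pair. The difference between populations was -0.03 on the log2 scale (-0.18 to 0.12) for Nfatc1 and -0.08 (-0.19 to 0.03) for Nfatc3, within counting error for both.

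The 3 calcineurin subunits shared a pattern. All were above 1 in HSCs and below 1 in CD41low/CD9low HSCs, by less than the cutoffs. Ppp3ca, an A subunit, stood at 119, 143, 134 and 111 CPM in HSC WT, HSC KO, CD41low/CD9low WT and CD41low/CD9low KO, with ratios of 1.22 (1.17 to 1.26) and 0.834 (0.782 to 0.889). Ppp3cb, the other A subunit, stood at 102, 124, 56.2 and 49.5 CPM in the same order, with ratios of 1.24 (1.19 to 1.29) and 0.883 (0.8 to 0.974). Ppp3r1 stood at 102, 119, 64.1 and 51.6 CPM, with ratios of 1.19 (1.15 to 1.24) and 0.806 (0.733 to 0.885). The log2 differences between populations were -0.55, -0.49 and -0.56, at percentiles 17.2, 19.2 and 16.6 among 13535 genes. A difference of this size was not rare among these genes, many of which may have had far fewer counts. After the length correction the HSC ratios were 1.07 for Ppp3ca, 1.12 for Ppp3cb and 1.27 for Ppp3r1. Ppp3cb and the B subunit were lower in both CD41low/CD9low libraries than in both HSC libraries, whereas Ppp3ca overlapped.

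Rcan1 lies at chr16:92391953-92470867 on the minus strand and has an upstream and an internal start. The windows before both are printed because the internal one is known for its cluster of NFAT sites, and they differed in the motif. They cover chr16:92466170-92466419 and chr16:92400079-92400328, with GGAAA on either strand again in capitals.

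Rcan1 first start: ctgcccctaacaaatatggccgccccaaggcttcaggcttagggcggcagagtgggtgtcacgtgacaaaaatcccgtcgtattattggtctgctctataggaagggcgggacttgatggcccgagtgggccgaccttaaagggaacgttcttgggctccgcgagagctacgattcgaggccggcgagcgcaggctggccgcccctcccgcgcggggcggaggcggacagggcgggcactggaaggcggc

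Rcan1 internal start: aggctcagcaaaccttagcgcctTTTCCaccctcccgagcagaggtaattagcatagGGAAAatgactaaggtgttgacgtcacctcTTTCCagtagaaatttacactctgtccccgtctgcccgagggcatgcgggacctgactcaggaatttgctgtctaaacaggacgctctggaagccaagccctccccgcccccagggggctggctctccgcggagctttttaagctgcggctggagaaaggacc

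The first window held 0 matches to GGAAA and 2 to AATC, and the internal window 3 and 0. The internal matches lie at -227 to -223, -193 to -189 and -163 to -159. The gene-level counts do not split the transcripts of the 2 starts, so a change in only the internal one could not be seen as such.

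Rcan1 had 784, 659, 202 and 328 counts in HSC WT, HSC KO, CD41low/CD9low WT and CD41low/CD9low KO, or 15.4, 15.8, 15.9 and 17.2 CPM. It varied least of the 8 genes over the 4 libraries. The ratio was 1.04 (0.934 to 1.15) for the HSC pair and 1.08 (0.906 to 1.3) for the CD41low/CD9low pair, and both intervals include 1. A KO level up to 1.15 times WT in HSCs, or up to 1.3 times in CD41low/CD9low HSCs, was thus within counting error.

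The genes most like Nfat5, Nfatc2 and Rcan1 over the 4 libraries were named by the root mean square difference of centred log2 normalized counts, among 11353 genes. For Nfat5 these included Smg1 and Rbms2 (0.05 and 0.057). For Nfatc2 they were Tnfsf13, Mapre3 and Rasa4 (0.07, 0.094 and 0.098), and for Rcan1 Hgsnat, Npc1 and Pigp (0.005, 0.008 and 0.01). With only 4 points, each a different library, this likeness is a description.

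A fit to all 4 libraries asked which genes differed with genotype over both populations. The edgeR quasi-likelihood test with population and genotype as terms had 1 residual degree of freedom, and the 2 populations took the place of replicates although, by the methods, those of a genotype came from the same mice. Its p-values therefore do not measure the spread between animals. Of the 8 genes 0 passed at an adjusted p of 0.05, where 0.843% of 14940 genes did (0.535% higher and 0.308% lower in KO), and DESeq2 also called 0. Nfat5 was nearest, with a log2 KO/WT of 0.48 ± 0.17 (SE), unadjusted p = 0.014 and Benjamini-Hochberg adjusted p = 0.311 in edgeR. It alone among the 8 had an unadjusted p under 0.05, which 1501 of the genes had. Nfatc3 followed with 0.30 ± 0.15 and adjusted p = 0.525 in edgeR. Corrected for exon length, the genotype log2 of Nfat5 was 0.29 and that of Nfatc3 0.20. Nfatc2, with opposite ratios in the 2 populations, had a log2 of -0.10 ± 0.28 and an adjusted p of 0.98 in the same edgeR test.

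In the same fit 4 of the 8 genes were lower in CD41low/CD9low HSCs than in HSCs, where 20.8% of genes differed (12.6% lower and 8.24% higher). They were Ppp3cb (log2 -1.16 ± 0.17, adjusted p = 0.000136 by edgeR), Ppp3r1 (-1.0 ± 0.17, adjusted p = 0.000543 by edgeR), Nfatc3 (-0.88 ± 0.15, adjusted p = 0.00051 by edgeR) and Nfat5 (-0.69 ± 0.18, adjusted p = 0.00973 by edgeR). Each was lower in both genotypes, but Nfat5 by less in WT (log2 -0.28) than in KO (-1.1). The WT and KO values were -0.92 and -1.39 for Ppp3cb, -0.73 and -1.27 for Ppp3r1, and -0.85 and -0.91 for Nfatc3. Nfatc2 was at 0.80 ± 0.28 with an adjusted p of 0.0522 by edgeR, above the threshold, and the values of Nfatc1, Ppp3ca and Rcan1 were 0.16, -0.16 and 0.02. Corrected for exon length the log2 values were -0.95 for Ppp3cb, -1.06 for Ppp3r1, -0.60 for Nfatc3 and -0.33 for Nfat5. The populations also differed in depth and in the genes their count files list (38293 and 41214), and these cannot be told apart from the cells.

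The other family genes were low or close to 1. Ppp3r2, the testis B subunit, had 0, 4, 0 and 0 counts and was not examined further. Rcan2 had 155 and 45 counts in HSC WT and KO, a ratio of 0.358 (0.251 to 0.502), and 85 and 101 counts in CD41low/CD9low WT and KO, a ratio of 0.792 (0.588 to 1.07). Nfatc4 had 43, 46, 48 and 30 counts in the 4 libraries, with ratios of 1.32 (0.852 to 2.05) and 0.417 (0.255 to 0.671). Each was past a cutoff in 1 population only. Ppp3cc was at 1.2 (1.0 to 1.43) and 1.36 (1.03 to 1.81), and Rcan3 at 1.04 (0.98 to 1.1) and 1.05 (0.954 to 1.14).

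The genes upstream of calcineurin are read against the 24.4% of genes past a cutoff in HSCs and the 25.5% in CD41low/CD9low HSCs. Of 18 genes for calcium release and entry, 2 were up in HSCs, the phospholipase gene Plcb1 at 1.54 (1.41 to 1.69) and the inositol trisphosphate receptor gene Itpr2 at 2.32 (2.22 to 2.43), and 0 were down. Corrected for exon length, Plcb1 was at 1.35, under the cutoff, and Itpr2 at 1.92. In CD41low/CD9low HSCs 0 of the 18 were past a cutoff, and Itpr2 was at 1.15 (1.05 to 1.25). Of the Wnt/calcium ligands and receptors, 7 of 9 had enough counts in HSCs and 4 of 9 in CD41low/CD9low HSCs. In CD41low/CD9low HSCs 0 were past a cutoff. In HSCs Wnt5b was above the upper cutoff at 2.88 (1.04 to 9.14, with 6 counts in WT and 14 in KO). Wnt11 was below the lower cutoff at 0.19 (0.0208 to 0.839, with 13 and 2 counts). Each passed the count filter only through its higher library, which favors a ratio past a cutoff, and each interval includes the cutoff. Wnt5b and Wnt11 are therefore not read against the share of all genes. The Wnt5a receptor gene Ror2 was at 0.609 (0.452 to 0.813) for the HSC pair and 0.928 (0.674 to 1.28) for the CD41low/CD9low pair. The receptor genes Fzd6 and Fzd3 were at 1.39 (1.31 to 1.48) and 1.27 (1.14 to 1.41) in HSCs and at 0.81 and 1.11 in the other pair, and Ryk was at 0.986 and 1.43. The median log2 ratio of these lists lay between 0.02 and 0.12 in the 2 populations, against 0.00 and 0.01 for all genes.

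Among calmodulin and its kinases, Camkk1, which phosphorylates other calmodulin kinases, was down in both populations. It had 1047 and 432 counts in HSC WT and KO and 687 and 569 in CD41low/CD9low WT and KO, with ratios of 0.509 (0.454 to 0.57) and 0.552 (0.493 to 0.618). In the fit its adjusted p by edgeR was 0.0583, above the threshold. Camk2d, with 22.49 kb of exon, was up in HSCs at 1.53, but at 1.21 after the length correction, and at 1.01 in CD41low/CD9low HSCs, where Camk4 had 0 and 12 counts. Of 8 calcineurin-binding genes 1, Rcan2, was past a cutoff in HSCs and 0 in CD41low/CD9low HSCs. Fkbp1a, the partner of the inhibitor FK506, was at 1.49 (1.4 to 1.6) in HSCs, at 1.57 and so past the cutoff after the length correction, and at 0.869 (0.769 to 0.982) in CD41low/CD9low HSCs. A list of 11 genes held NFAT kinases, a nuclear exporter and other regulators of NFAT. Of the other regulators, Lrrk2 was up (1.83) and Homer2 down (0.528) in HSCs, and Homer2 had 0 and 10 counts in CD41low/CD9low HSCs. The share of 2 in 11 was near that of all genes.

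Several early-response genes that NFAT factors can induce were lower in HSC KO. The list was chosen with earlier results known, so its counts are a description and no independent evidence of a direction. Of 12 cytokine and early-response targets 6 had enough counts in either HSC library, all 6 had ratios below 1 and 5 were past the cutoff (Ptgs2, Nr4a1, Egr2, Egr3 and Il4), beside 10.3% of all genes. Nr4a1, an immediate-early nuclear receptor, had 8970 counts in HSC WT and 1337 in HSC KO, a ratio of 0.184 (0.174 to 0.195), and 107 and 57 in CD41low/CD9low WT and KO, a ratio of 0.355 (0.253 to 0.494). It was lower with genotype in the fit (adjusted p = 5.54e-05 by edgeR), the only gene of the pathway lists to pass. Ptgs2 was at 0.105, Egr2 at 0.24 and Egr3 at 0.262 in HSCs. As background, these 4 are also induced by many signals other than NFAT, growth factors among them. In CD41low/CD9low HSCs 3 of the 12 had enough counts, with Nr4a1 below the cutoff, Il4 at 1.39 (55 and 115 counts) against 0.392 (107 and 34 counts) in HSCs, and Tnf with 0 counts in WT and 29 in KO. Of the osmotic targets of Nfat5, 6 of 7 had enough counts. In HSCs 2 of the 6 had ratios above 1 and 4 below, with a median log2 of -0.01. Past the upper cutoff was 1, the heat shock gene Hspa1b (2.04, 1.87 to 2.23), near the 14.1% of all genes. Slc5a3, the inositol carrier, was at 1.44, Hspa4l at 0.999 and Slc38a2 at 0.907 in HSCs. In CD41low/CD9low HSCs 0 were past a cutoff.

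**Figure D5:**
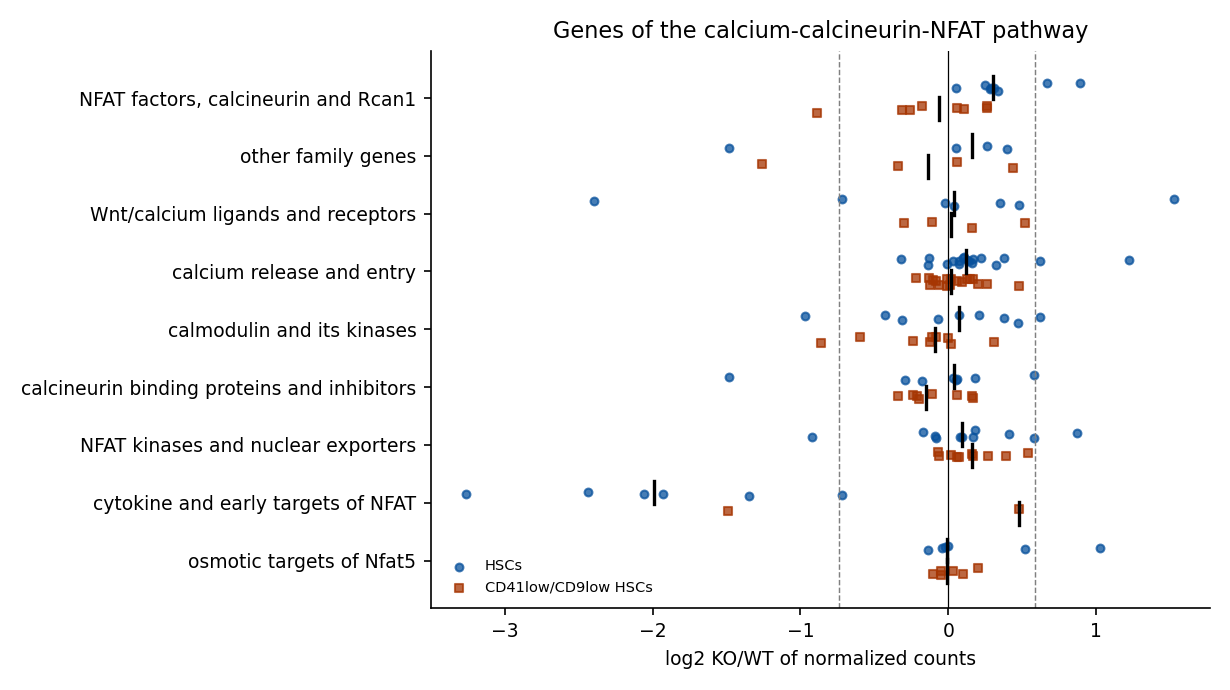
The log2 KO/WT ratio of each gene of the pathway lists in HSCs (circles) and CD41low/CD9low HSCs (squares), with the list's median as a black bar and dashed lines at the cutoffs. Genes at 0 counts in 1 library of a pair have no finite ratio and are not drawn but count in the medians. The cytokine and early targets lie to the left in HSCs, with a median of -1.99.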

How the data were processed

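Per the labels, the authors made poly(A) libraries with a stranded kit, and the submitters' processing notes name TopHat2 2.0.10, SAMtools, HTSeq, DESeq and mm10. The deposited values are raw counts of reads per Ensembl gene, 1 file per library. The rows for unassigned reads stayed out of library sizes. The annotation release and the strand setting are not given in the sources used here. The labels name a MoFlo sorter and the methods a FACSAria II.

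The 8 genes and all lists were chosen with earlier results of these data known. Symbols, positions and exon lengths came from GENCODE M21, and 98.5% and 99.3% of the genes examined had a length. Within each population, counts were scaled by median-of-ratios size factors, genes with 10 counts in at least 1 library were kept, and intervals are Clopper-Pearson intervals of 95%. Cutoffs of 1.5 and 0.6 follow the study. The fit to 4 libraries used edgeR 4.0.16 (TMM, glmQLFTest, R 4.3.3) on genes with 10 counts in at least 2 libraries, with Benjamini-Hochberg adjustment over all genes. Its code was also run on simulated counts with known changes, in which libraries were drawn independently. That run does not cover libraries that share mice. An interaction of population and genotype left no residual degrees of freedom. Intervals cover counting error only.

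From each pathway list, up to 4 genes with the largest log2 ratio and 100 counts are named. Genes past a cutoff are also named where few, which were chosen after their values were seen. Genes of like pattern are the 3 nearest with a mean of 100 counts, of which 1 is not reported here. Promoter windows came from RefSeq (GRCm38.p6) and matched 6 of the 8 genes, in 9 windows, searched for GGAAA, AATC and CTTTGA (TCF/LEF), the last held by 13.8% of windows and among the 8 genes by 1 window of Nfatc3. Nfatc1 and Ppp3ca are named only. In CD41low/CD9low WT and KO the platelet genes summed to 430 and 470 CPM and the erythroid genes to 77.8 and 62.5 CPM, and the mast cell genes to 33.3, 39.9, 11.2 and 3.92 CPM in HSC WT, HSC KO, CD41low/CD9low WT and CD41low/CD9low KO. Alternatives were TMM, total-count and 4-library scaling, no filter, a filter of 50 counts, a pseudocount of 1, correction for exon length, RLE factors and DESeq2 1.42.0.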

Additional observations from a re-analysis of the deposited data

Results flagged for a closer look

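For 4 genes the KO/WT ratio was above 1 in HSCs and below 1 in CD41low/CD9low HSCs, beyond counting error in each. The same was seen in 8.05% of the 14144 genes examined in both, which were not of like counts. With the HSC value subtracted from the CD41low/CD9low value, the log2 difference was -1.56 for Nfatc2, -0.55 for Ppp3ca, -0.49 for Ppp3cb and -0.56 for Ppp3r1. The difference was not tested, since each population had 1 library per genotype and an interaction left no residual degrees of freedom. These values are without the length correction. With it, the HSC ratios were 1.4 for Nfatc2, 1.07 for Ppp3ca, 1.12 for Ppp3cb and 1.27 for Ppp3r1, without intervals.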

How the results depend on the processing

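The counts of the 8 genes past a cutoff were unchanged under all scalings, filters, the pseudocount and the reciprocal of 1.5 as lower cutoff, except that the length correction left 0 in HSCs (2 without it). Over all genes, the number past a cutoff in HSCs was 3887, 7003 without a filter and 2223 with 50 counts required, and in CD41low/CD9low HSCs 3780, 5660 without a filter and 1682 with 50 counts required. Genes called with genotype in the fit numbered 126, 420 without a filter and 69 with 50 counts required, and 99 in DESeq2. Without a filter the population log2 of Rcan1 turned from 0.02 to -0.012, and Nfatc2 passed the threshold at 0.772, which made 5 genes. The cause was not tested. The length correction of the fit was chosen after seeing the data. It took the genotype log2 of Nfat5 from 0.48 to 0.29, and turned the signs of values near 0, the population log2 of Ppp3ca (-0.16 to 0.07) and Rcan1 (0.02 to -0.01) and the genotype log2 of Ppp3ca (0.01 to -0.09), Ppp3cb (0.07 to -0.01) and Ppp3r1 (-0.02 to 0.02), none of them past the threshold. No paired analysis was possible because each genotype and population has 1 library, and for the same reason none could be left out. The CD41low/CD9low libraries were shallower (12732079 and 19123185 counts), which limits genes of few counts there.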
